A study of Mus musculus with 21 samples.

Results

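The genes described here decide which fast transmitter a neuron makes and packs: Gad1, Gad2, Slc32a1, Slc6a5 and Abat for GABA and glycine, and Slc17a6, Slc17a7 and Slc17a8 for glutamate. They were taken by symbol, with each gene represented by the probe set of largest SD over the 21 arrays, and 7 of the 8 genes were measured, among 18193 genes in all. Slc17a8 was not analysed here. RNA came from purified post-mitotic neurons made from mouse embryonic stem cells, on Affymetrix arrays that hold 45101 probe sets, with 3 biological replicates in each of 7 groups. In the engineered lines a nestin enhancer, active in neural progenitors, drives 1 transcription factor. The NesE-Lmx1a line, labelled as midbrain dopaminergic neurons, was sampled after 10 and 14 days with SHH and FGF8. The NesE-Nkx2.2 line, labelled as serotonergic neurons, was sampled after 10 days with SHH and FGF8 (rostral hindbrain, per the labels) or with SHH and retinoic acid, RA (caudal hindbrain). The NesE-Olig2 line, labelled as somatic motor neurons, was sampled after 8 days with SHH and RA. Wild type cells were sampled after 10 days with FGF8 and after 8 days with RA. Of their labels, the titles give SHH as well but the source names give none, and dorsal midbrain and dorsal hindbrain are stated as their identities, so line and SHH cannot be told apart where a line is set against wild type cells. The labels do not say whether a line is 1 clone.

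Inhibitory neurons make GABA from glutamate with the glutamate decarboxylases encoded by Gad1 and Gad2, and load GABA or glycine into synaptic vesicles with a shared transporter encoded by Slc32a1. Glycinergic neurons also carry the plasma membrane glycine transporter encoded by Slc6a5, and Abat encodes the transaminase that breaks GABA down. Excitatory neurons load glutamate with vesicular transporters, of which Slc17a6 prevails in the brainstem, midbrain and spinal cord and Slc17a7 in cortex, and Slc17a8 is also found in serotonergic neurons. Dopaminergic and cholinergic motor neurons are known to use some of these genes beside their main transmitter.

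All values are log2 deviations from the median of the probe set, so a difference of 1 is 2-fold, and levels of different genes cannot be compared. In bulk RNA, fewer cells of a type and less RNA per cell cannot be told apart. The lines carried their factor: Lmx1a lay at 8.06 to 9.31 in the 6 arrays of its line and at 4.39 or lower elsewhere, and Olig2 at 3.80 to 5.24 in its line, although replicate 3 of the Lmx1a line at day 10 also read 4.89. Nkx2-2 lay at 0.13 to 1.85 in its line and at 0.20 or lower elsewhere. These ranges overlapped, since Nkx2.2 FGF8 replicate 3 (0.13) lay below Olig2 replicate 2 (0.20). The mean of 4 serotonergic markers was 3.94 to 5.66 in the Nkx2.2 line and 2.29 or lower elsewhere, and that of 5 cholinergic motor markers 4.62 to 4.94 in the Olig2 line and 1.21 or lower elsewhere. Ddc and Slc18a2 are on both the dopaminergic and the serotonergic list, so the means of these lists are not independent. The mean of 5 dopaminergic markers was 3.24 to 3.93 in Lmx1a day 14. At day 10 (1.91 to 2.49) it overlapped Nkx2.2 FGF8 (0.94 to 2.39), so as a list it did not set the day 10 group apart. Th alone did, at 5.30 to 6.41 against -1.55 to 3.43. The mean of 8 pan-neuronal markers lay between -0.67 and 0.57 in all arrays. It was 0.34 to 0.57 in wild type RA and -0.67 to -0.27 in Nkx2.2 RA, and its part in the transmitter values was not tested. By their bioC hybridisation controls the arrays formed 2 sets, here called batches, of 9 (A: all Lmx1a day 10 arrays and replicates 1 and 2 of Lmx1a day 14, Olig2 and FGF8 wild type) and 12 (B: the rest), and labelling controls were low in the 3 Lmx1a day 10 arrays alone, at -3.38 to -3.26 against -1.60 to 1.80, so labelling and group cannot be told apart there.

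Promoters in RefSeq (GRCm38.p6) were found for 7 of the 8 genes, without Abat, as 10 windows from 250 bases before to 50 after a transcription start. The most and the least variable of the measured genes were the paralogues Slc17a6 and Slc17a7, and the 250 bases before their starts are shown for that contrast, at chr7:51621580-51621829 and chr7:45163671-45163920, both on the plus strand. The Slc17a6 stretch lies within an annotated long non-coding RNA gene, Gm33136. Capitals mark matches to any searched motif on either strand.
Slc17a6: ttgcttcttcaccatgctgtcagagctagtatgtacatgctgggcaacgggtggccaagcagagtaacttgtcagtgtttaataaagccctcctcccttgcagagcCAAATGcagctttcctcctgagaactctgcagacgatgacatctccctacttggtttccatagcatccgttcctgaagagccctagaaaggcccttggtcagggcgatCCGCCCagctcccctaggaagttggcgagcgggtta
Slc17a7: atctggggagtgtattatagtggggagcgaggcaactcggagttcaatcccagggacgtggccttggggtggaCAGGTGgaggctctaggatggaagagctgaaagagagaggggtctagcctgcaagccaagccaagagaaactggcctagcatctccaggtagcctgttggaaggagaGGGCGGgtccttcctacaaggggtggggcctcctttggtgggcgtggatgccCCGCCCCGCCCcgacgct
Motifs were counted on both strands over each window of 300 bases. The E-box bound by basic helix-loop-helix factors, CANNTG, was present in 10 of the 10 windows and in 72.3% of all 32851 promoter windows of that length. One special case of it, CAGCTG, was present in none of the 10 windows, against 16.3% of all windows. The homeodomain core, TAATTA, was present in 2 windows, against 5.3% of all windows. The core promoter motif, TATAAA, was present in 1 window, that of Gad1, against 13.6% of all windows. The Gad1 match is on the minus strand, within bases -153 to -124 from the start. The GC-box core, GGGCGG, was present in 3 windows, against 35.7% of all windows. Another special case of the E-box, CATCTG, was present in 4 windows, against 17.2% of all windows, and these were 1 each of Gad2, Slc6a5, Slc17a6 and Slc17a8, on both sides of the transmitter divide. Those of the inhibitory genes Gad2 and Slc6a5 are shown because they carry this motif. Their 30 bases lie at chr2:22622239-22622268 and, before the second listed start of Slc6a5, at chr7:49911597-49911626, both on the plus strand, with the motif in capitals.
Gad2: ctccctcccccgCATCTGactcgcacctca
Slc6a5: ctggaatgtgtgCATCTGtgtatgcagacc
These matches are descriptions of the letters in each window, and the arrays hold no readout of binding there.

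The GABA-synthesis genes were high in 4 groups and low in 2. Gad1 read 4.57, 3.47 and 3.58 in wild type RA, 3.25, 4.13 and 2.94 in Lmx1a day 14, 2.98, 2.76 and 4.03 in Nkx2.2 FGF8 and 2.38, 4.04 and 1.54 in wild type FGF8. It read -0.76, -1.09 and -0.87 in Nkx2.2 RA and -2.71, -2.49 and -1.83 in Olig2. The 12 arrays of the first 4 groups all lay above the 6 arrays of these last groups, which did not overlap each other. The Lmx1a line at day 10 spanned the gap, at 0.00, -1.47 and 2.81 in replicates 1 to 3. By the probe set used, Gad2 repeated the division, at 1.17 to 3.41 in the 4 high groups and -1.34 to -0.72 in Nkx2.2 RA and Olig2, with 0.00, -0.79 and 2.21 at Lmx1a day 10. The second Gad2 probe set, described below, correlated with it at only 0.69. In group means Gad1 fell from wild type RA (3.88 ± 0.60, SD, n = 3) through Lmx1a day 14, Nkx2.2 FGF8, wild type FGF8, Lmx1a day 10 (0.45 ± 2.17) and Nkx2.2 RA to Olig2 (-2.34 ± 0.46), and only the last neighbours in this order had arrays that did not overlap. For Gad2 every pair of neighbours overlapped.

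The vesicular GABA and glycine transporter gene Slc32a1 ordered the group means otherwise than Gad1. It read 5.66, 4.70 and 4.60 in wild type RA, 3.66, 5.14 and 2.98 in wild type FGF8 and 3.05, 2.89 and 4.0 in Nkx2.2 FGF8. These 9 arrays lay above the 2.16, 2.37 and 1.05 of Lmx1a day 14. At Lmx1a day 10 it read -0.25, -0.27 and 2.69, so again replicate 3 alone was high, and in Olig2 and Nkx2.2 RA all 6 arrays lay between -0.41 and 0.00. The order of means was wild type RA (4.98 ± 0.59), wild type FGF8, Nkx2.2 FGF8, Lmx1a day 14, Lmx1a day 10, Olig2 and Nkx2.2 RA (-0.32 ± 0.08, SD, n = 3), with no overlap between Nkx2.2 FGF8 and Lmx1a day 14 and overlap between all other neighbours. Thus by group means Lmx1a day 14 came next after wild type RA for Gad1, but below 3 groups for the transporter. In the limma fit described below, Slc32a1 was called lower in Lmx1a day 14 than in wild type RA (-3.13 ± 0.69, adjusted p = 0.00491). It was not called against wild type FGF8 (-2.07 ± 0.69, 0.0573) or Nkx2.2 FGF8 (-1.46 ± 0.69, 0.27). Gad1 was not called between Lmx1a day 14 and any of these groups (adjusted p of 0.67 to 0.927).

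Slc6a5, the glycinergic marker, was high in wild type RA alone. It read 6.11, 5.23 and 4.73 there and 0.00, 2.28 and 0.31 in wild type FGF8. The 15 arrays of the other 5 groups lay between -0.05 and 0.15. Replicate 2 of wild type FGF8, at 2.28, also had the highest Gad1, Gad2 and Slc32a1 of its group. In that array the mean of 5 cycling markers was -1.47 against 1.25 and 1.58 in its replicates, the serotonin transporter gene Slc6a4 was 2.07 against -2.74 and -3.12, and Th, which encodes the rate-limiting enzyme of dopamine synthesis, was 3.90 against 0.90 and 0.86. The part of these differences in its inhibitory values was not tested. Abat moved least among the GABA genes, from -1.49 to 0.92 over all arrays, with the highest mean in Olig2 (0.81 ± 0.13), where Gad1 was lowest, and the lowest in wild type FGF8 (-0.83 ± 0.15, SD, n = 3). The arrays of every pair of neighbouring groups overlapped for Abat.

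**Figure D1:**
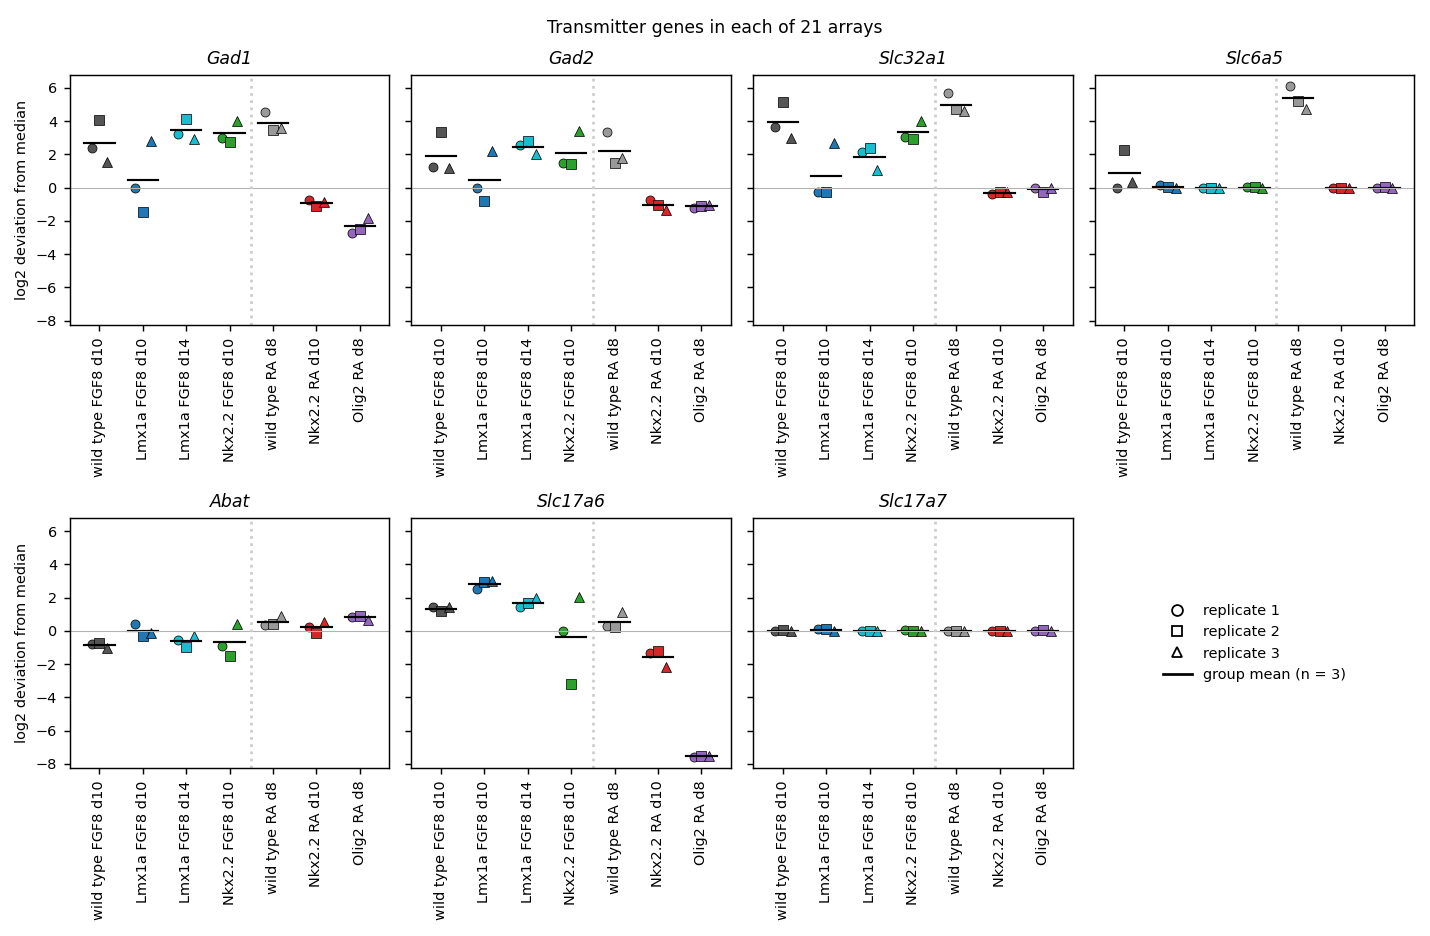
Log2 deviation of each of the 7 measured genes from the median of its probe set (y axis) in the 21 arrays, by group (x axis, FGF8 groups left of the dotted line, RA groups right). Symbols are replicates 1 to 3 and bars are group means. Slc6a5 is high in wild type RA only, Slc17a6 lies near -7.5 in the 3 Olig2 arrays, and Gad1, Gad2 and Slc32a1 are spread widely among the Lmx1a day 10 arrays.

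Among the glutamate transporters, Slc17a6 had the widest range of the measured genes. It read 2.51, 2.92 and 2.98 in Lmx1a day 10, 1.43, 1.65 and 1.98 in Lmx1a day 14 and 1.41, 1.18 and 1.42 in wild type FGF8. These 3 groups did not overlap one another, and wild type RA lay below them at 0.30, 0.23 and 1.13. The gap between Lmx1a day 14 and wild type FGF8 was narrow, 1.43 against 1.42. In the limma fit described below they were not called different (0.34 ± 0.82, adjusted p = 0.822), nor were Lmx1a day 14 and wild type RA (1.13 ± 0.82, 0.466). Nkx2.2 FGF8 read 0.00, -3.18 and 2.06, Nkx2.2 RA -1.31, -1.19 and -2.18, and Olig2 -7.56, -7.52 and -7.55. The Olig2 arrays were the lowest by more than 4 log2 units and differed among themselves by an SD of 0.02, and whether such values are background cannot be read from centred data. Nkx2.2 FGF8 overlapped wild type RA above and Nkx2.2 RA below in this order. Its 3 arrays ran in the same order for Slc17a6 as for Th (2.38, -1.55 and 3.43), Lmx1a (1.12, 0.00 and 3.23) and Dlx1 (3.16, -0.82 and 6.59), while the serotonergic marker mean was 5.38, 5.66 and 3.94. The part of these markers in Slc17a6 was not tested. Slc17a7, of the other main vesicular glutamate transporter, stayed between -0.04 and 0.12 in all 21 arrays, so no group was marked by it.

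Set against each other, the median of Gad1, Gad2, Slc32a1 and Slc6a5 and the value of Slc17a6 placed the groups in different combinations. Wild type RA had the highest inhibitory medians, 4.09 to 5.11, with Slc17a6 at 0.23 to 1.13. Wild type FGF8 had medians of 1.36 to 3.70 with Slc17a6 at 1.18 to 1.42, which was not called different from wild type RA (-0.79 ± 0.82 in RA minus FGF8, adjusted p = 0.523). Lmx1a day 14 had medians of 1.53 to 2.57 with Slc17a6 at 1.43 to 1.98. Lmx1a day 10 had the highest Slc17a6 and inhibitory medians of 0.00, -0.53 and 2.45. Nkx2.2 FGF8 had inhibitory medians of 2.10 to 3.71 over its wide range of Slc17a6. Nkx2.2 RA, at -0.65 to -0.56, and Olig2, at -0.68 to -0.52, had both low. These 2 groups were alike in the inhibitory median, although their Gad1 arrays did not overlap, and apart by 5.99 in the mean of Slc17a6. A difference of the median and Slc17a6 would rank Olig2 highest, at 6.84 to 7.02, though none of the 4 inhibitory genes was high in it.

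**Figure D2:**
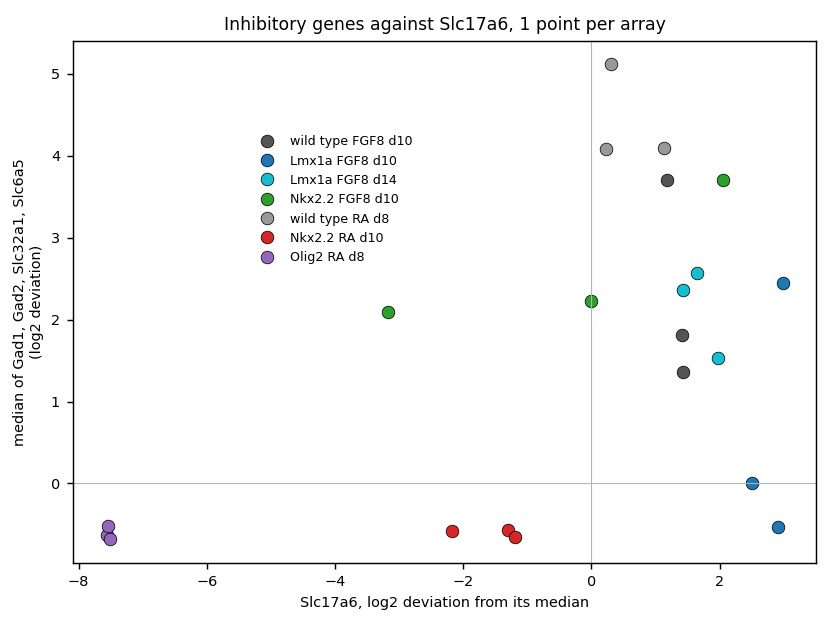
Median log2 deviation of Gad1, Gad2, Slc32a1 and Slc6a5 (y axis) against the log2 deviation of Slc17a6 (x axis), 1 point per array and 1 colour per group. The Olig2 and Nkx2.2 RA arrays lie at the bottom with inhibitory medians of -0.68 to -0.52, far apart in Slc17a6, and wild type RA lies at the top.

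Against wild type RA, the inhibitory genes were lower in both lines grown with RA, and the vesicular glutamate transporter was lower in the motor neuron line as well. Groups were compared with limma over all 18193 genes, and a gene was called at a Benjamini-Hochberg adjusted p under 0.05 and a difference of at least 1 log2 unit. In Olig2 against wild type RA, 5 of the 7 genes were called lower and none higher, where 4.85% of all genes were called lower and 5.50% higher. Slc17a6 differed by -8.10 ± 0.82 (SE, adjusted p = 1.03e-05), Gad1 by -6.22 ± 0.83 (0.000142), Slc6a5 by -5.36 ± 0.42 (7.71e-07), Slc32a1 by -5.08 ± 0.69 (0.000162) and Gad2 by -3.31 ± 0.76 (0.00716). For each of them the 3 Olig2 arrays lay below the 3 wild type arrays. Abat (0.26 ± 0.36, adjusted p = 0.643) and Slc17a7 were not called. The arrays of the flat Slc17a7 did not overlap here either, at a difference of 0.05. Nor did they in Nkx2.2 RA against wild type RA (0.03) or in wild type RA against wild type FGF8 (-0.05). The share of all genes without overlap was not counted. Lack of overlap, here and below, is therefore a description and no test of a difference. The replicates 2 and 3 of wild type RA had high mesenchymal markers, with means of 3.78 and 3.02 over 5 genes against -0.18 in replicate 1, and without any 1 of these arrays all 5 calls were kept. Within batch B, where Olig2 has a single array assumed to vary like the other groups there, 3 of the 5 were called, and Slc17a6 was at -8.10 (adjusted p = 0.0545) and Gad2 at -3.23 (0.145).

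In Nkx2.2 RA against wild type RA, 4 genes were called lower and none higher, beside 9.16% of all genes lower and 8.84% higher. The days differ here, 10 against 8. Slc6a5 differed by -5.38 ± 0.42 (adjusted p = 5.32e-07), Slc32a1 by -5.30 ± 0.69 (4.72e-05), Gad1 by -4.78 ± 0.83 (0.000486) and Gad2 by -3.23 ± 0.76 (0.00461). Slc17a6 differed by -2.11 ± 0.82 without passing the threshold (adjusted p = 0.0728), although its arrays did not overlap between the groups. The Nkx2.2 RA and Olig2 comparisons share the 3 wild type RA arrays, so their likeness is not an independent observation. Compared directly, Nkx2.2 RA had higher Slc17a6 than Olig2, by 5.99 ± 0.82 (adjusted p = 8.95e-05), and no other of the 7 genes was called, where 6.19% of genes were higher and 6.94% lower. The SE pools the spread of all 7 groups, which differ widely for this gene. Within batch B, with 1 Olig2 array assumed to vary like the other groups there, the difference was 5.99 (adjusted p = 0.0954).

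The difference between the Nkx2.2 line and wild type cells depended on the medium for 3 inhibitory genes. In Nkx2.2 FGF8 against wild type FGF8, none of the 7 genes was called, beside 2.83% of all genes higher and 1.71% lower. Gad1 differed by 0.60 ± 0.83 (adjusted p = 0.931), Slc32a1 by -0.61 ± 0.69 (0.837) and Slc17a6 by -1.72 ± 0.82 (0.276). The last rested on single arrays: without replicate 3 of the Nkx2.2 line Slc17a6 was called at -2.93 (adjusted p = 0.00934), and without replicate 2 it was -0.31. The interaction, the difference in FGF8 minus that in RA, was 5.38 ± 1.17 for Gad1 (adjusted p = 0.0166), 4.69 ± 0.97 for Slc32a1 (0.0128) and 4.52 ± 0.60 for Slc6a5 (0.000727), beside 2.60% of all genes called higher and 1.78% lower. Gad2 was 3.41 ± 1.07 (adjusted p = 0.0785). With quantile normalization Slc6a5 alone stayed called, with Gad1 at 4.91 (adjusted p = 0.0728) and Slc32a1 at 4.21 (0.0617). For Slc6a5 it reflects the wild type cells, since all 6 Nkx2.2 arrays lay within 0.05 of 0. Medium and day are joined in this contrast, because wild type RA was sampled at day 8.

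Within the Nkx2.2 line, where line, SHH and day are the same, GABA genes were higher under FGF8 than under RA. Gad1 was higher by 4.16 ± 0.83 (adjusted p = 0.00674), Slc32a1 by 3.63 ± 0.69 (0.00471) and Gad2 by 3.14 ± 0.76 (0.0203), with no overlap of arrays for any of them. These were 3 of the 7 genes, beside 1.65% of all genes higher and 2.66% lower. Gad1 and Slc32a1 were called without each single array, whereas Gad2 lost its call without FGF8 replicate 3 (adjusted p = 0.0883) or RA replicates 2 (0.0576) or 3 (0.0536). The serotonergic marker mean was 3.94 to 5.66 under FGF8 and 4.08 to 4.44 under RA. Slc6a5 lay within 0.05 of 0 in both, and Slc17a6 differed by 1.18 ± 0.82 (adjusted p = 0.526) with overlapping arrays, although it was called at 2.59 (adjusted p = 0.00495) without FGF8 replicate 2.

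**Figure D3:**
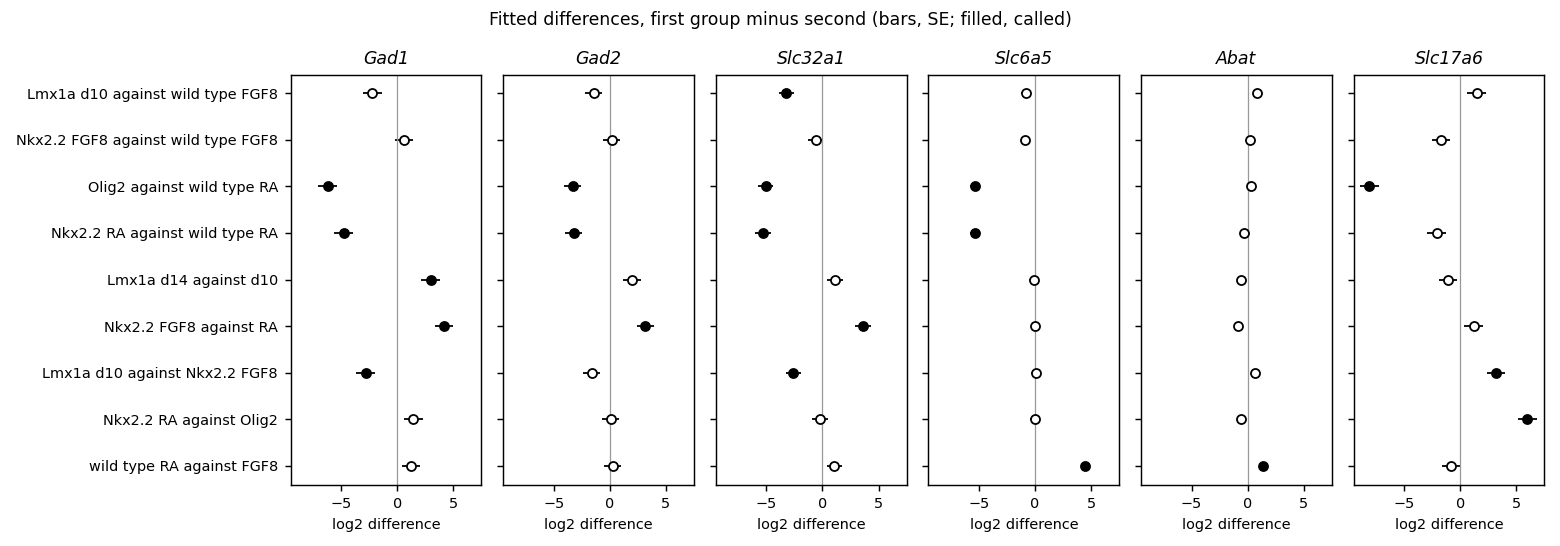
Fitted log2 differences (x axis, first group minus second) for 6 of the 7 measured genes in the 9 comparisons (y axis), with bars of 1 SE and filled points where the gene was called. The largest are the lower values in the Olig2 and Nkx2.2 RA groups against wild type RA and the higher Slc17a6 of Nkx2.2 RA over Olig2; Slc17a7, between -0.08 and 0.06, is not drawn.

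In the dopaminergic line, the transporter Slc32a1 alone was called against wild type FGF8 at day 10. It was lower by -3.21 ± 0.69 (adjusted p = 0.0138), beside 1.36% of all genes lower and 1.96% higher, and all 3 Lmx1a arrays lay below the wild type ones. Gad1 was at -2.21 ± 0.83 (adjusted p = 0.17), and Slc17a6 at 1.46 ± 0.82 (0.418) with no overlap of arrays. Within batch A Slc32a1 was not called (-3.68, adjusted p = 0.134), and Slc17a6 was (1.5, 0.0155). With only the 6 arrays compared, Slc32a1 was likewise not called (adjusted p = 0.285) and Slc17a6 was (0.0321). The Slc32a1 call was lost also without Lmx1a replicate 1 (-2.72, adjusted p = 0.0574) or 2 (-2.71, 0.0536). Without replicate 3, Slc32a1 was at -4.19 (adjusted p = 0.00051) and Gad1 was also called, at -3.39 (0.0082). Replicate 3, the array with high Gad1, Gad2 and Slc32a1, also had Dlx1, Dlx2 and Dlx5, homeobox genes of forebrain GABAergic neurons, at 4.90, 5.08 and 4.37 against 1.95, 1.66 and 0.64 in replicate 1 and 0.50, 0.49 and 0.03 in replicate 2. It had Nkx2-1, a gene of the ventral forebrain, at 3.82 against 0.13 and 0.29, Olig2 at 4.89 against 0.58 and 0.91, and a mesenchymal marker mean of 0.78 against -2.16 and -2.39. Nkx2-1, Olig2, Th, Lmx1a, Slc6a4 and the Dlx genes are named for single arrays after their values were seen. The part of these genes in the inhibitory values was not tested.

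From day 10 to day 14 of the Lmx1a line Gad1 was higher by 2.99 ± 0.83 (adjusted p = 0.0427), the only call among the 7 genes, beside 2.96% of all genes higher and 1.28% lower. The arrays of the 2 days did not overlap. The call was lost without any 1 of Lmx1a day 10 replicates 1 and 2 and the 3 day 14 arrays, at adjusted p of 0.0592 to 0.161, and with the replicate block (0.0586). Without day 10 replicate 3, Gad1 was higher by 4.17 (adjusted p = 0.00217), Gad2 by 2.84 (0.0246) and Slc32a1 by 2.12 (0.0263). Slc17a6 was at -1.12 ± 0.82 (adjusted p = 0.386), with every day 14 array below every day 10 array. Within batch A it was called lower in day 14 (-1.26, adjusted p = 0.0171), while Gad1 was not called between the days there (3.24, 0.235). The mean of 5 cycling markers was 0.48 to 0.93 at day 10 and -1.41 to -0.33 at day 14, and its part in these values was not tested.

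Between the dopaminergic and serotonergic lines under FGF8, Lmx1a day 10 had higher Slc17a6 (3.18 ± 0.82, adjusted p = 0.0266) and lower Gad1 (-2.81 ± 0.83, 0.048) and Slc32a1 (-2.60 ± 0.69, 0.0298). Of all genes 2.2% were called higher and 2.87% lower. All 3 Lmx1a day 10 arrays are of batch A and all 3 Nkx2.2 arrays of batch B. With batch as a block, estimated from the groups that span both, Slc32a1 was called (-3.43, adjusted p = 0.0464) and Slc17a6 (3.36, 0.113) and Gad1 (-3.35, 0.111) were not, and with only the 6 arrays compared none of the 3 was (adjusted p of 0.237 to 0.313). The Gad1 arrays overlapped, with Lmx1a replicate 3 at 2.81 and the lowest Nkx2.2 array at 2.76. Gad1 and Slc32a1 kept their calls only without Lmx1a day 10 replicate 3 (-3.99, adjusted p = 0.00309, and -3.58, 0.00177), and lost them without each of the other 5 arrays, at adjusted p of 0.0595 to 0.193. Slc17a6 lost its call without Lmx1a replicate 2 or 3 or Nkx2.2 replicate 1 (adjusted p of 0.0633 to 0.071), and was at 1.78 without Nkx2.2 replicate 2.

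Between the wild type groups, RA cells had higher Slc6a5, by 4.49 ± 0.42 (adjusted p = 1.27e-05), and higher Abat, by 1.38 ± 0.36 (0.0221), beside 4.29% of all genes higher and 3.11% lower. Medium and day cannot be told apart here, and all wild type RA arrays but only 1 of the FGF8 arrays are of batch B. With batch as a block Slc6a5 was called (4.67, adjusted p = 0.000111) and Abat was not (1.38, 0.0738). The Slc6a5 call was kept without each array, and its arrays did not overlap. The Abat arrays did not overlap either, but the call was lost without wild type FGF8 replicate 1 (adjusted p = 0.0604) or 3 (0.0791), or wild type RA replicate 2 (0.0528) or 3 (0.0707). Gad1 (1.22 ± 0.83, adjusted p = 0.393), Slc32a1 (1.06 ± 0.69, 0.376) and Gad2 (0.27 ± 0.76, 0.828) were not called. Of the 23 calls of these genes in the 9 comparisons and the interaction, 16 were kept without each single array of the groups involved.

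The 15 probe sets of the 7 genes did not all respond. The second Gad1 and Slc17a6 probe sets followed those used (r = 0.97 and 0.96 over 21 arrays), and gave -4.48 ± 0.78 (adjusted p = 0.00134) and -4.88 ± 1.00 (0.00397) in Olig2 against wild type RA. In Lmx1a day 10 against Nkx2.2 FGF8 neither was called (adjusted p = 0.0788 and 0.0634). The second Gad1 probe set was not called in Lmx1a day 14 against day 10 (0.0607). In this limma fit over single probe sets, the Gad1 probe set used was not called in these comparisons either (0.0544 and 0.0501). The second Gad2 probe set correlated at 0.69. It was not called in Olig2 against wild type RA (-0.69 ± 0.89, adjusted p = 0.616) or in Nkx2.2 RA against wild type RA (-0.71 ± 0.89, 0.788). Nor was it called in Nkx2.2 FGF8 against RA (1.07 ± 0.89, 0.64), so the Gad2 calls rest on the probe set used. The 3 other Slc32a1 probe sets ranged over 0.12, 0.85 and 0.98 log2 units against 6.07 for the one used. The other probe sets of Slc6a5 and Abat ranged over 0.26 and 0.14. Slc17a7 has 1 probe set, with a range of 0.16, so its flat values come from a single reading that no other probe set checks.

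**Figure D4:**
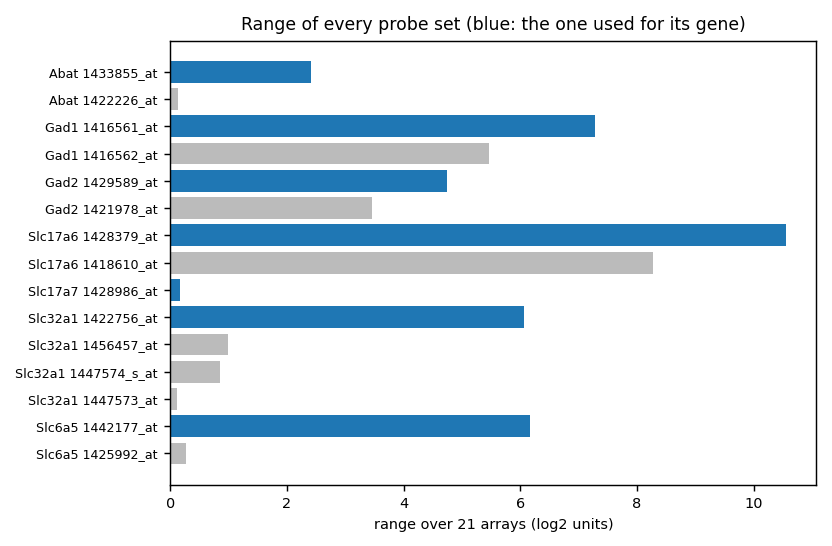
Range of values over the 21 arrays in log2 units (x axis) for each of the 15 probe sets (y axis), with the one used for its gene in blue and the others in grey. Slc32a1, Slc6a5 and Abat each have probe sets with a range below 1 beside the one used, and the single Slc17a7 probe set spans 0.16.

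Over the 21 arrays, Gad1 was most like Gad2 (r = 0.96), Slc32a1 (0.88) and Nol4 (0.86) of all 18193 genes. Slc32a1 was next most like Enho (r = 0.87) and Fgd1 (0.85), and Gad2 like B330016D10Rik (0.85). Slc6a5 was most like Pax8 (0.98), Klhl14 (0.98) and Slc35f4 (0.97). Pax8 read 4.90 to 6.77 in wild type RA and 0.78 or lower elsewhere. Slc17a6 was most like Nrn1 (0.95), Tmem163 (0.94) and Klhl1 (0.90), and Abat like Ltbp1 (0.81), Tob2 (0.81) and Slc25a31 (0.79). Gad1 and Slc17a6 correlated at 0.65, with both low in Olig2 and Nkx2.2 RA. The arrays of a group share their cells and medium, so these values describe 21 points that fall into 7 groups.

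Several transcription factors listed for inhibitory neurons were lower in the RA lines than in wild type RA. Both lines were set against the same 3 wild type arrays. Of 15 tested factors, 8 were called lower in Olig2 than in wild type RA and none higher, with a median difference of -2.76 against 0.04 over all genes, of which 4.85% were called lower. Lbx1, of dorsal hindbrain and spinal interneurons, differed by -7.15 ± 0.34, Gata3 by -6.91 ± 0.65, Pax8 by -6.0 ± 0.32 and Lhx5 by -5.33 ± 0.54, each kept without any 1 array. In Nkx2.2 RA, 6 were lower, 1 higher and 8 not called, with a median of -0.15 against 0.01 over all genes, of which 9.16% were lower and 8.84% higher. Lhx1 differed by -8.39 ± 0.64, Lbx1 by -7.17 ± 0.34, Pax8 by -6.05 ± 0.32 and Lhx5 by -5.41 ± 0.54, whereas Gata2 was higher by 1.72 ± 0.54 (adjusted p = 0.0257), a call lost without Nkx2.2 RA replicates 1 or 2 or wild type RA replicate 3. Gata2 and Gata3 act in GABAergic neurons and also in serotonergic neurons. Between the Nkx2.2 media, Lhx5 (4.11 ± 0.54), Lhx1 (3.80 ± 0.64) and Nkx6-2 (2.57 ± 0.48) were called higher under FGF8 and none lower. These were 3 of the 15 factors, beside 1.65% of all genes higher and 2.66% lower, with a list median of 0.78 against 0.03 over all genes. Lhx5 was the listed factor most like Gad1 (r = 0.78), Gad2 (0.79) and Slc32a1 (0.83), but it also correlated with Slc17a6 at 0.72. Pax8 was the one most like Slc6a5 (0.98), followed by Evx1 of the excitatory list (0.95).

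In wild type RA against wild type FGF8, 4 of the 15 inhibitory factors were higher (4.29% of all genes), Pax8 by 5.76 ± 0.32, Gbx1 by 2.69 ± 0.53, Gata3 by 2.29 ± 0.65 and Lbx1 by 1.52 ± 0.34, and Tal2 was lower (-2.46 ± 0.63). Without single arrays the count higher ran from 2 to 5, with Gata3 and Lbx1 both lost without wild type FGF8 replicate 3, and Pax8 and Gbx1 kept throughout. In Nkx2.2 FGF8 against wild type FGF8, where no transmitter gene was called, 3 inhibitory factors were higher (2.83% of all genes) and 3 lower (1.71%), with Gata3 at 3.67 ± 0.65, Gata2 at 3.36 ± 0.54 and Lbx1 at -5.63 ± 0.34, each kept without any 1 array. The count lower there was 1 without Nkx2.2 FGF8 replicates 1 or 2 or wild type FGF8 replicate 1, which Lhx1 and Tal2 do not survive. In Lmx1a day 10 against wild type FGF8, 4 were lower (1.36% of all genes), among them Lbx1 (-5.60 ± 0.34) and Tal1 (-4.23 ± 0.76), and 2 were left without Lmx1a replicates 1 or 2. The interaction had 4 higher (2.60% of all genes), with Lhx1 (5.79 ± 0.91), Pax8 (5.78 ± 0.46) and Lhx5 (3.62 ± 0.76) kept without each array. Dlx1, Dlx2 and Dlx5 had their highest group mean in Lmx1a day 14, at 4.95, 3.23 and 3.85, were called in none of the comparisons, and had group means below 0 in wild type RA, where Gad1 was highest.

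The listed factors of excitatory neurons gave calls in comparisons where Slc17a6 gave none. Of 17 tested, 10 were lower and 1 higher in Lmx1a day 10 than in wild type FGF8, where Slc17a6 was at 1.46 and not called, with a median difference of -1.79 against 0.03 over all genes, of which 1.36% were lower and 1.96% higher. Tfap2b differed by -8.61 ± 0.56, Lhx9 by -6.10 ± 0.89, Lhx2 by -4.30 ± 1.14, a call lost without any 1 of 15 arrays, and Tlx1 by -3.73 ± 0.75, while Sim1 was higher by 3.00 ± 0.72, a call lost without Lmx1a replicate 3 or wild type FGF8 replicates 1 or 2. Tfap2b is also expressed in inhibitory neurons, and Tlx1 and Tlx3 are known as selectors of glutamatergic over GABAergic fate in the dorsal cord. In Nkx2.2 FGF8 against wild type FGF8, 11 were lower and none higher, beside 1.71% and 2.83% of all genes, with a median of -2.44. In Olig2 against wild type RA, 6 were lower (4.85% of all genes, list median -0.07), among them Tfap2b (-5.65 ± 0.56), Tlx3 (-4.89 ± 0.65) and Lmx1b (-4.47 ± 0.49), and 2 higher (5.50% of all genes), Isl1 (5.39 ± 0.41), also a motor neuron gene, and Neurog2 (2.81 ± 0.62). In Nkx2.2 RA 7 were lower and 2 higher (9.16% and 8.84% of all genes, list median -0.31). Those lower included Tfap2b (-6.86 ± 0.56), Pou4f1 (-6.51 ± 0.53) and Tlx3 (-4.96 ± 0.65), each kept without any 1 array. Those higher were Sim1 (5.0 ± 0.72) and Lmx1b (1.48 ± 0.49). Lmx1b is also a serotonergic factor, and its call was lost without Nkx2.2 RA replicates 2 or 3 or any 1 wild type RA array. Lmx1b was the listed factor most like Slc17a6 (r = 0.76), with both lowest in Olig2. In wild type RA against wild type FGF8 8 were lower and 1 higher (3.11% and 4.29% of all genes, list median -1.61), led by Lhx9 (-7.21 ± 0.89) and Lhx2 (-7.20 ± 1.14).

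**Figure D5:**
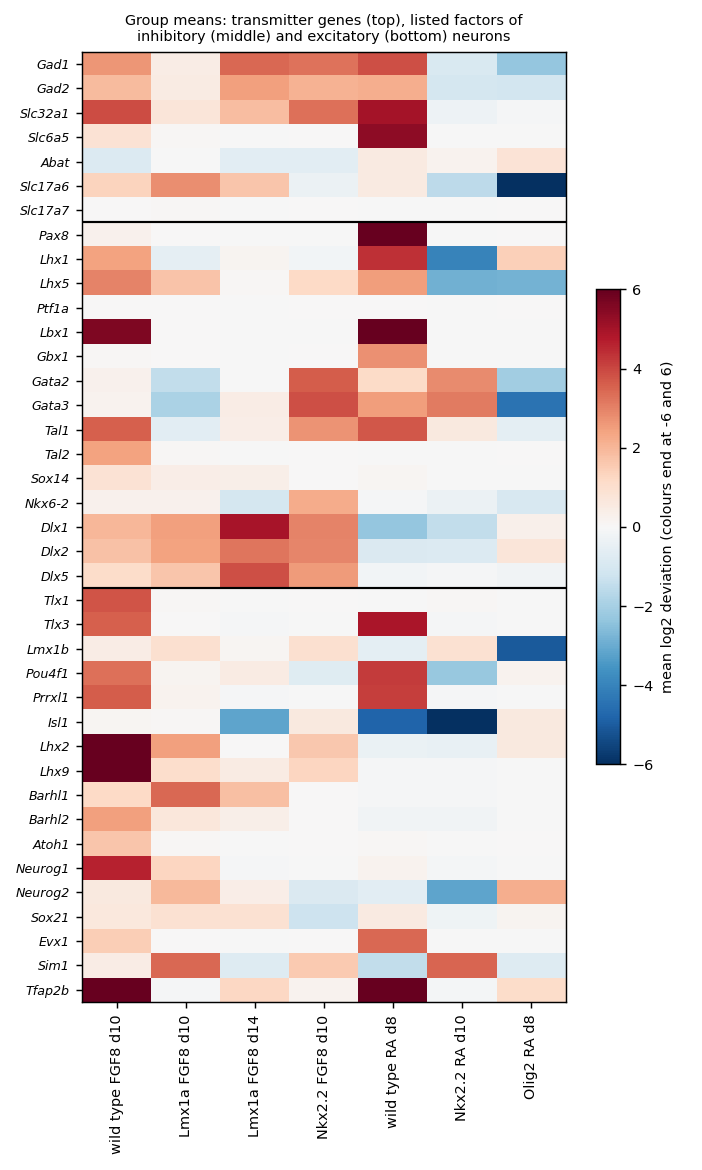
Mean log2 deviation over 3 arrays (colour, ending at -6 and 6) of the 7 transmitter genes, 15 listed factors of inhibitory neurons and 17 of excitatory neurons (rows) in the 7 groups (columns). Pax8 and Gbx1 are high in wild type RA as Slc6a5 is, Lmx1b is lowest in Olig2 as Slc17a6 is, and the Dlx genes are high in Lmx1a day 14 and low in wild type RA.

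Genes that receive the inhibitory transmitters differed too. Of 15 tested genes of the inhibitory synapse, the GABA receptor subunit gene Gabrb1 was higher in the Nkx2.2 line than in wild type cells in FGF8 (5.62 ± 0.58) and in RA (5.25 ± 0.58), opposite in sign to Gad1 in the latter. In Nkx2.2 RA against wild type RA 5 of the 15 were higher and 3 lower (3 higher without Nkx2.2 RA replicates 1 or 2 or wild type RA replicates 1 or 2), beside 8.84% and 9.16% of all genes and with a list median of 0.00, with Gabra2 at 3.06 ± 0.60 and Nlgn2, a postsynaptic adhesion gene, at -2.03 ± 0.33. In Olig2 against wild type RA 2 were lower (4.85% of all genes), Gabrb2 (-2.82 ± 0.34) and Nlgn2 (-1.84 ± 0.33). From day 10 to day 14 of the Lmx1a line, 3 receptor genes were higher (2.96% of all genes) and none lower, Gabra3 by 3.08 ± 0.63, Gabrb1 by 2.79 ± 0.58 and Gabrb2 by 1.60 ± 0.34, each kept without any 1 array. In wild type RA against wild type FGF8 3 of the 15 were higher and none lower, beside 4.29% and 3.11% of all genes. The glycine receptor gene Glra1 was higher by 2.15 ± 0.42. Glra2 (2.71 ± 0.81) and Nlgn2 (1.35 ± 0.33) were also called, and each of the latter lost its call without wild type FGF8 replicates 1 or 3, among others. Glra1 had a like mean in Olig2 (2.27 ± 0.10) and wild type RA (2.15 ± 0.69, SD, n = 3), while Slc6a5 lay near 0 in Olig2.

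Some uptake and metabolism genes were called. Of 12 tested genes for GABA uptake, breakdown and precursors, none was called in 7 of the 10 contrasts, and the calls were of the glutamine transporter genes Slc38a1, lower in Olig2 (-2.18 ± 0.55) and Nkx2.2 RA (-1.55 ± 0.55) than in wild type RA, and Slc38a2, lower in Nkx2.2 RA (-1.25 ± 0.25), and of Aldh5a1, which acts after Abat, higher in Nkx2.2 RA than in Olig2 by 1.22 ± 0.13. The first Slc38a1 call was lost without Olig2 replicate 2 and the other without any 1 of 15 arrays. Thus of the 12 genes, 1 was lower in Olig2 than in wild type RA (4.85% of all genes). In Nkx2.2 RA 2 were lower than in wild type RA (9.16%), and 1 was higher than in Olig2 (6.19%). Of 6 genes for glycine handling, the glial glycine transporter gene Slc6a9 was higher in Lmx1a day 10 than in wild type FGF8 (1.56 ± 0.26) and than in Nkx2.2 FGF8 (1.41 ± 0.26), and Gldc, of the glycine cleavage system, was higher in Nkx2.2 RA than in wild type RA (2.19 ± 0.57) and lower in wild type RA than in wild type FGF8 (-2.42 ± 0.57, a call lost without wild type FGF8 replicates 1 or 3 or wild type RA replicate 1). Of 9 genes for glutamate uptake, Slc1a2 was lower in Olig2 (-2.37 ± 0.43) and in Nkx2.2 RA (-3.09 ± 0.43) than in wild type RA. Slc1a5 and Got1 were lower in Nkx2.2 RA than in wild type RA (-1.31 ± 0.24 and -1.10 ± 0.17). They were also lower there than in Olig2 (-2.15 ± 0.24 and -1.81 ± 0.17), each kept without any 1 array. Of the 9 genes, 1 was lower in Olig2 than in wild type RA (4.85% of all genes). In Nkx2.2 RA 3 were lower than in wild type RA (9.16%) and 2 lower than in Olig2 (6.94%). Slc1a3 was higher in Lmx1a day 10 than in wild type FGF8 (3.21 ± 0.79, adjusted p = 0.0304), a call lost without Lmx1a replicates 1 or 3 or wild type FGF8 replicates 2 or 3. It was also higher in wild type RA than in wild type FGF8 (3.21 ± 0.79, adjusted p = 0.016), a call lost without wild type FGF8 replicate 2 or wild type RA replicates 2 or 3. Slc1a3 was the only gene of the 9 called in these comparisons (1.96% and 4.29% of all genes higher). In Nkx2.2 FGF8 against wild type FGF8 1 of the 9 was lower (1.71%), and in the interaction 1 was higher (2.60%). Slc1a2 and Slc1a3 are known from astroglia, and the mean of 7 astroglial markers was -0.86 to -0.55 in Olig2, 1.12 to 1.25 in Nkx2.2 RA, -0.35 to 0.81 in wild type RA, -0.27 to 0.05 in Lmx1a day 10 and -1.21 to -0.15 in wild type FGF8, and its part in these values was not tested.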

How the data were processed

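Affymetrix mouse expression arrays were hybridised with 3' IVT Express targets, per the labels' protocols. The deposited values are log2 GCRMA values, per the submitters' processing notes, centred on each probe set's median over 27 arrays, of which 21 are analysed here; they hold no level or background, and the number of arrays limits the precision. The members and gene lists were chosen with earlier results of these data known. Of 45101 probe sets, 34945 carried 1 gene symbol, 932 several and 9160 none, and 64 were controls; named genes numbered 18193, each with its probe set of largest SD. limma 3.58.1 (R 4.3.3) fitted 7 group means to 21 arrays, with contrasts, empirical Bayes moderation and Benjamini-Hochberg adjustment over all genes; the fit was tested on simulated data. Genes named beside the members were taken from up to 4 called genes of largest change per list and comparison, from the 3 genes most like a member (given for 6 members) and from the cell type markers. Gata2, Lmx1b, Neurog2, Nlgn2, Sim1 and Lbx1, where they fall outside these 4, were named after their values were seen, because few genes of the list were called in their direction. Dlx1, Dlx2 and Dlx5 are on the inhibitory factor list but were called in no comparison, and they too were named after their values were seen. Replicates are labelled biological. Replicate numbers were not taken as pairs: deviations of same-numbered arrays correlated at 0.00603 (63 pairs) and those of other numbers at -0.00337 (126 pairs). Listed genes with no named probe set were not analysed here.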

Additional observations from a re-analysis of the deposited data

Results flagged for a closer look

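The Nkx2.2 line differed from wild type cells by different amounts in the 2 media for 3 inhibitory genes, by limma's test of the difference itself (FGF8 minus RA). The value was 5.38 for Gad1 (adjusted p = 0.0166), from 0.60 in FGF8 and -4.78 in RA. For Slc32a1 it was 4.69 (adjusted p = 0.0128), from -0.61 and -5.30, and for Slc6a5 it was 4.52 (adjusted p = 0.000727), from -0.86 and -5.38. Medium and day cannot be told apart for the wild type cells. With quantile normalization the differences of Gad1 (4.91, adjusted p = 0.0728) and Slc32a1 (4.21, 0.0617) were no longer called, and that of Slc6a5 was (3.58, 0.0224).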

How the results depend on the processing

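Of 161 calls of listed genes, 110 were kept without each of the 21 arrays. The number of the 7 transmitter genes called was 1 for Lmx1a day 10 against wild type FGF8, 0 for Nkx2.2 FGF8 against wild type FGF8, 5 for Olig2 and 4 for Nkx2.2 RA against wild type RA, 1 for Lmx1a day 14 against day 10, 3 for Nkx2.2 FGF8 against RA, 3 for Lmx1a day 10 against Nkx2.2 FGF8, 1 for Nkx2.2 RA against Olig2, 2 for wild type RA against FGF8 and 3 for the interaction. Without single arrays these ran, in the same order, 0 to 2, 0 to 1, 5 to 5, 4 to 4, 0 to 3, 2 to 4, 0 to 3, 1 to 1, 1 to 2 and 3 to 4. With the replicate block, although the numbers do not pair the arrays, the count for Lmx1a day 14 against day 10 was 0 and that for Lmx1a day 10 against Nkx2.2 FGF8 was 2, and the other counts did not move. Counts that moved by over 1.5 times follow. With only the arrays compared, the counts were 0 for Lmx1a day 14 against day 10, 0 for Lmx1a day 10 against Nkx2.2 FGF8 and 2 for Nkx2.2 RA against Olig2. At an adjusted p under 0.01 they were 0 for both Lmx1a day 10 comparisons and for day 14 against day 10, and 1 for the wild type groups and for the interaction. With array quality weights, whose iteration stopped before its tolerance, they were 4 for Lmx1a day 10 and 1 for Nkx2.2 FGF8 against wild type FGF8, 4 for day 14 against day 10, 2 for Nkx2.2 RA against Olig2, 4 for the wild type groups and 5 for the interaction, where Slc17a6 turned from 0.39 to -2.34 (adjusted p = 0.0155); the cause was not tested. With the mean of all probe sets they were 0 for Lmx1a day 10 against wild type FGF8, 1 for Nkx2.2 FGF8 against RA and 1 for the wild type groups. With quantile normalization they were 0 for day 14 against day 10 and 1 for the interaction. With batch as a block they were 1 for Lmx1a day 10 against Nkx2.2 FGF8 and 1 for the wild type groups, and within batch B 3 for Olig2 against wild type RA, 0 for Nkx2.2 RA against Olig2 and 1 for the wild type groups. Smaller moves included those to 2 for Nkx2.2 FGF8 against RA at an adjusted p under 0.01 and with quantile normalization, and, with the mean of all probe sets, to 4 for Olig2 and 3 for Nkx2.2 RA against wild type RA and 2 for Lmx1a day 10 against Nkx2.2 FGF8. Within batch B, Olig2 and wild type FGF8 have 1 array each, assumed to vary like the other groups. Chosen after seeing the data, leaving out Lmx1a day 10 replicate 1, wild type FGF8 replicate 2 and Nkx2.2 FGF8 replicate 1 together gave 0 for both Lmx1a day 10 comparisons and for day 14 against day 10, and leaving out Lmx1a day 10 replicate 3 and Nkx2.2 FGF8 replicate 2 gave 2 for Lmx1a day 10 against wild type FGF8 and 3 for day 14 against day 10.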
